A study of Mus musculus with 9 samples.

Results

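Yolk sac (YS) lines and fetal liver (FL) lines of mouse macrophages were compared gene by gene. The comparison took 3 YS libraries and 3 FL libraries, 6 of the 9 RNA libraries of the series, and the 11460 of 24411 genes that reached 1 TPM in 3 or more of these 6 libraries. The study asks how macrophages of different origin differ once they are expanded in the same way. TPM, the unit of the deposited table, scales each library to the same total and each gene by its length, so levels can be set side by side between genes, while the sequencing depth behind a value is unknown and a gene without reads is given as listed at 0. All lines came from C57BL/6 mice. YS lines began as E9.5 yolk sac cells and FL lines as E14.5 fetal liver cells, and 3 BM lines from adult bone marrow entered the same fit to help estimate the spread. Every group was kept in recombinant human macrophage colony-stimulating factor (M-CSF), and the labels name no transgene or deletion in any group. A line is the bulk culture of 1 dish or well, started from cells pooled over several mice and grown out from colonies that appeared in long culture. The labels do not say that the 3 lines of a group came from separate pools of mice, so p-values measure the spread between these lines only, which may be technical.

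Macrophages of the embryo arise in successive waves. The yolk sac makes the earliest ones directly, and the fetal liver then becomes the main site of blood formation and sends out monocytes that seed most tissues, while bone marrow takes over late. All depend on signals through the M-CSF receptor. Tissue macrophages are known for taking up dying cells, lipoproteins and modified proteins through scavenger receptors, for recycling iron and heme, and for a transcription factor program that differs from tissue to tissue.

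The label was checked against macrophage markers, all 16 of which were tested. None was called higher in YS lines and 2 were called higher in FL lines, Mertk and Lyz2, described below. Of the 16 means 6 were higher in YS lines and 10 in FL lines. In 4 of the 16 every FL line was above every YS line (background 13.6%). The 16 summed to 10306 to 17039 TPM across YS lines and 18831 to 35803 TPM in FL lines, without overlap. Lyz2 alone gave 1163 to 3531 TPM of the YS sums and 5806 to 21976 TPM of the FL sums. Sums without Lyz2 were not compared. Csf1r, the M-CSF receptor, was at 1086, 1882 and 1889 TPM in YS1, YS2 and YS3 and at 2441, 2251 and 2145 TPM in FL1, FL2 and FL3. Tyrobp, the adaptor of many myeloid receptors, was at 2088, 2514 and 2238 TPM in the YS lines and 1852, 2687 and 2404 TPM in the FL lines. Markers of other cells were low: summed over 16 erythroid markers the level was 2.1 to 16.1 TPM across YS lines and 5.5 to 16.6 TPM in FL lines, and over 14 fibroblast and mesothelial markers 3.7 to 8.6 and 4.4 to 8 TPM. Hbb-bs, Hbb-bt, Ttr, Apob, Hnf4a, Col3a1, Cd3e and Elane, which define erythroid, liver, mesenchymal, T or granulocytic cells, were listed at 0 in all 6 libraries. The 16 hepatocyte and visceral endoderm markers summed to 2.4 to 12.5 TPM across YS lines and 9.8 to 21.6 TPM in FL lines, of which Afp, the fetal serum protein, was 6.44, 6.44 and 1.03 TPM across YS lines and 8.84, 12 and 20.4 TPM in FL lines. Apoa2, an apolipoprotein of the same list, was called higher in YS lines, at 5.48, 3.75 and 1.31 TPM in YS and 0.51, 0.41 and 0.75 TPM in FL lines. Endothelial markers summed to 42.5 to 87.7 and 23.1 to 94.6 TPM, with Emcn, Cldn5 and Robo4 at 0, and 1 of the 5 tested was called, Egfl7, at 8.18, 2.03 and 19.9 TPM across YS lines and 0.29, 0.59 and 0 TPM in FL lines. Megakaryocyte and mast cell markers summed to 5.7 to 8.9 and 1.5 to 3.7 TPM and granulocyte markers to 2.5 to 28.9 and 12.3 to 27.6 TPM. Both granulocyte markers tested were called, Cebpe, a transcription factor of granulocytes, higher in YS lines at 25.1, 8.35 and 1.48 TPM in YS and 0.55, 1.33 and 0.51 TPM in FL lines, and S100a8, described below, higher in FL lines. Apoa2, Egfl7 and Cebpe kept their calls in 3, 7 and 1 of 9 fits that left out a library. All lost their calls in a fit of the 6 YS and FL libraries alone. The part of cells other than macrophages in the results was not tested. In bulk cultures a smaller number of cells of a type and less RNA per cell cannot be told apart.

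The BM2 library, which here only adds to the estimate of spread, stood apart from BM1 and BM3 in genes of the YS and FL lines. Of 45 genes with at least 20 TPM in YS2 and under 0.5 TPM in BM1 and BM3, 43 reached 0.5 TPM in BM2, at a median of 14.1% of their YS2 level (quartiles 10.7% and 17.7%). Taken from the other YS and FL lines in the same way, such genes had medians of 3.24% to 8.38% in BM2. In the 48 pairs of libraries of different groups where the receiving library was not BM2, this median was 0% to 0.41%. Cspg4 was at 0.33, 33.6 and 0.13 TPM and Rps4l at 0, 23.3 and 0.34 TPM in BM1, BM2 and BM3. Without BM2 337 genes were called between YS and FL lines, 167 higher in YS lines and 170 higher in FL lines, and without BM1 or BM3 the counts were 312 and 310, against 443 with all. Whether BM2 received RNA or reads of another library was not tested.

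Of the 11460 genes, 443 were called different (limma, Benjamini-Hochberg adjusted p under 0.1 and more than 2-fold), which is 3.87%. Of these, 226 (1.97%) were higher in YS lines and 217 (1.89%) were higher in FL lines. The fitted difference exceeded 8-fold for 40 of the YS-high and 21 of the FL-high genes. The median difference over all genes was 0.02 on the log2(TPM + 1) scale, YS minus FL, and the median size of a difference was 0.27. Groups did not overlap for 3003 genes (26.2%), with every YS line above every FL line in 1441 (12.6%) and the reverse in 1562 (13.6%), so lack of overlap alone was common. Of the 443 called genes 428 did not overlap.

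The number of calls depended on which libraries set the spread. In a fit of the 6 YS and FL libraries alone 76 genes were called (0.663%), 44 higher in YS lines (0.384%) and 32 higher in FL lines (0.279%), all of them among the 443. Leaving out FL2 left 194 calls, leaving out FL3 left 189, and leaving out YS1, YS2, YS3 or FL1 left 400, 589, 532 and 541. There were 63 genes, 36 YS-high and 27 FL-high, that were called in the 6-library fit and also without each of the 6 lines in turn. Genes of this kind are described below as called in every subset.

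**Figure D1:**
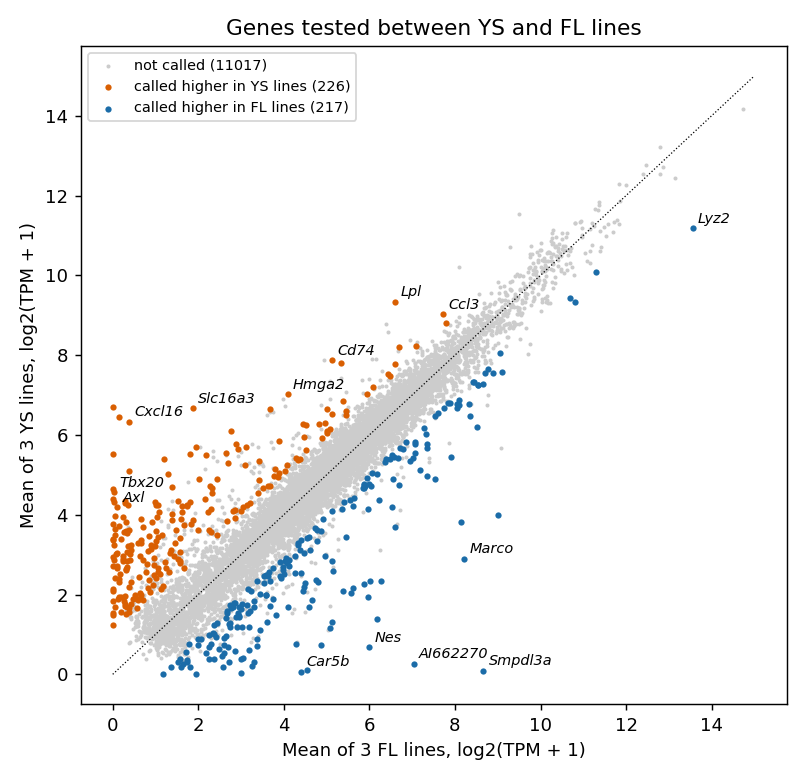
Mean level in the 3 FL lines (x axis) against the mean in the 3 YS lines (y axis), both as log2(TPM + 1), with 1 point for each of 11460 genes. Called genes lie away from the dotted line of equality, 226 above it and 217 below it, and many YS-high genes sit at the left edge, where the FL lines are close to 0.

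YS1 stood apart from the other YS lines. Pearson correlations of log2(TPM + 1) over the genes tested were 0.939 between YS1 and YS2 and 0.907 between YS1 and YS3. YS2 and YS3 correlated at 0.959, within the 0.946 to 0.962 between FL lines. Between a YS and an FL line the values were 0.875 to 0.947, the highest for YS2 with FL1. Among YS-high genes the ratio of the highest to the lowest YS line had a median of 2.44 and exceeded 5 in 55 genes. Among FL-high genes the ratio within the FL lines had a median of 1.61 and exceeded 5 in 12. YS1 was the highest YS line in 128 of the 226 YS-high genes, YS3 in 80 and YS2 in 18. FL1 was the lowest FL line in 135 of the 217 FL-high genes. These ratios and counts cover only genes called from the same values, and were not taken over all genes tested.

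A set of genes was all but silent in one origin. Under 1 TPM in every FL line and called were 78 genes, and under 1 TPM in every YS line and called were 33. For 9 genes in the YS-high direction and 4 in the other, every line of the higher group reached at least 10 TPM. Genes under 1 TPM in all lines of 1 group passed the filter only through the other group, so they had to differ, and counts of called list members below include them. Differences of such genes on the log2(TPM + 1) scale depend on the pseudocount of 1 and are not folds. The 200 bases before the RefSeq start of 4 of them (GRCm38.p6) are shown because transcription of a gene starts at its promoter, with each CG dinucleotide, the target of DNA methylation, in capitals. They were chosen after their values were seen. Methylation was not measured.
Tbx20, higher in YS, chr9:24774304-24774503, minus strand: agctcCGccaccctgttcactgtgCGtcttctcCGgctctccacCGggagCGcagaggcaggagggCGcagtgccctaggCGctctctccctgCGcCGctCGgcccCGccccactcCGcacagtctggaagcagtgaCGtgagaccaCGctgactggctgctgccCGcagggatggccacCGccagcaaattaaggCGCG
Axl, higher in YS, chr7:25788734-25788933, minus strand: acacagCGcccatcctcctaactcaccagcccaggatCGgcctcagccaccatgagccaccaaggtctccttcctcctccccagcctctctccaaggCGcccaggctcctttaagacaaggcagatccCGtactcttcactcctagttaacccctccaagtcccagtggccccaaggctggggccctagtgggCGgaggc
Nes, higher in FL, chr3:87970893-87971092, plus strand: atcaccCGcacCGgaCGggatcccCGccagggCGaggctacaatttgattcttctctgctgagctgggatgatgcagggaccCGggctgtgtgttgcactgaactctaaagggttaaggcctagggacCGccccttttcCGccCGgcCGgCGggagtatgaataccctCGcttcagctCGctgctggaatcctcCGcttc
Fabp7, higher in FL, chr10:57784723-57784922, plus strand: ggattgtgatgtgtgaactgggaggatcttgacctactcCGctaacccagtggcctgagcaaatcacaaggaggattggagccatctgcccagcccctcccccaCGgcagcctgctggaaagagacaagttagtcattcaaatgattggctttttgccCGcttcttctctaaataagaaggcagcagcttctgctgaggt
The windows hold 18 CG dinucleotides for Tbx20 and 14 for Nes against 5 for Axl and 3 for Fabp7, so each direction has a CG-rich and a CG-poor start among the 4. Over the 250 bases before the start the numbers were 22, 15, 5 and 4, beside a median of 16 for the 8736 of 11460 tested genes with an entry. A GC box, GGGCGG or CCGCCC on the other strand, is present in the windows of Tbx20, Axl and Nes, and 59.8% of these 8736 genes hold one in their 250 bases.

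Smpdl3a, a secreted phosphodiesterase of the acid sphingomyelinase family, had the largest difference of all called genes. It was at 0, 0.09 and 0.1 TPM in YS1, YS2 and YS3 and at 379.5, 277 and 621 TPM in FL1, FL2 and FL3. The YS lines were at or next to 0 and every FL line stood far above them, with no overlap (log2 difference, YS minus FL, -8.57 ± 0.27 (SE), adjusted p = 1.6e-06). In the BM lines it was at 243, 196 and 166 TPM, so among the 9 lines the gene was near 0 only in those from yolk sac. Its closest relative, Smpdl3b, was at 28.1, 50.04 and 62.9 TPM across YS lines and 71.4, 28.3 and 52.3 TPM in FL lines, which overlapped. Of 31 genes tested from the list of sphingolipid enzymes Smpdl3a alone was called (background 1.89%), and no activity on sphingolipids was measured. The list median was -0.21 against 0.02 for all genes, and 10 of the 31 had every FL line above every YS line (background 13.6%), among them Smpd1, acid sphingomyelinase itself, at 19.5, 32.2 and 29.6 TPM in YS and 45, 41.9 and 45.3 TPM in FL lines (not called, -0.71 ± 0.17 (SE), adjusted p = 0.055).

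Fabp7, a fatty acid-binding protein best known from radial glia, is the neighbour of Smpdl3a on chromosome 10 in the RefSeq annotation of GRCm38.p6. It was at 0, 0 and 0.25 TPM across YS lines and 9.7, 19.3 and 58.5 TPM in FL lines, again without overlap (-4.45 ± 0.53 (SE), adjusted p = 0.0072). The BM lines, at 0.21, 0.4 and 0.21 TPM, were at the YS level for Fabp7 and nearer the FL level for Smpdl3a, so the neighbours did not share their pattern over the 9 lines.

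Nes and AI662270 behaved in the same way between YS and FL lines. Nes, encoding the intermediate filament nestin of stem and progenitor cells, was at 0.46, 0.58 and 0.8 TPM across YS lines and 63.4, 83.1 and 47.2 TPM in FL lines (-5.31 ± 0.25 (SE), adjusted p = 2.6e-05), with BM lines at 0.05, 0.02 and 0.48 TPM. AI662270, a locus with no assigned role here, was at 0.42, 0.22 and 0 TPM across YS lines and 124, 155 and 115 TPM in FL lines (-6.77 ± 0.17 (SE), adjusted p = 3.9e-07), with BM lines at 154, 136 and 157 TPM. Nes was therefore above 1 TPM in the FL lines alone, while AI662270 was shared by FL and BM lines.

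Car5b, a mitochondrial carbonic anhydrase, was at 0.04, 0 and 0.1 TPM across YS lines and 18.2, 21.1 and 21.8 TPM in FL lines (-4.35 ± 0.16 (SE), adjusted p = 4e-06). Pkp2, a desmosomal plaque protein, was at 0.74, 0.94 and 0.86 TPM across YS lines and 9.81, 8.87 and 9.56 TPM in FL lines (-2.50 ± 0.15 (SE), adjusted p = 0.00014). Zfp182, a zinc finger protein, was at 0, 0.03 and 0.03 TPM in YS and 6.03, 8.45 and 6.51 TPM in FL lines (-2.96 ± 0.19 (SE), adjusted p = 0.00023). The YS lines were all under 1 TPM and the FL lines close to each other for these genes, and the BM lines reached at least the FL level for Car5b and Pkp2, at 43.4, 31.4 and 35.5 and 11.2, 10.4 and 13 TPM. Smpdl3a, Fabp7, Nes, AI662270, Car5b, Pkp2 and Zfp182 were called in every subset. Slc17a9, the vesicular nucleotide transporter, at 0.2, 0.28 and 0.24 TPM in YS and 14.4, 6.37 and 7.25 TPM in FL lines, Syp, encoding synaptophysin, and Asap2, an Arf GTPase-activating protein, were further genes under 1 TPM in all YS lines that were called in every subset.

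**Figure D2:**
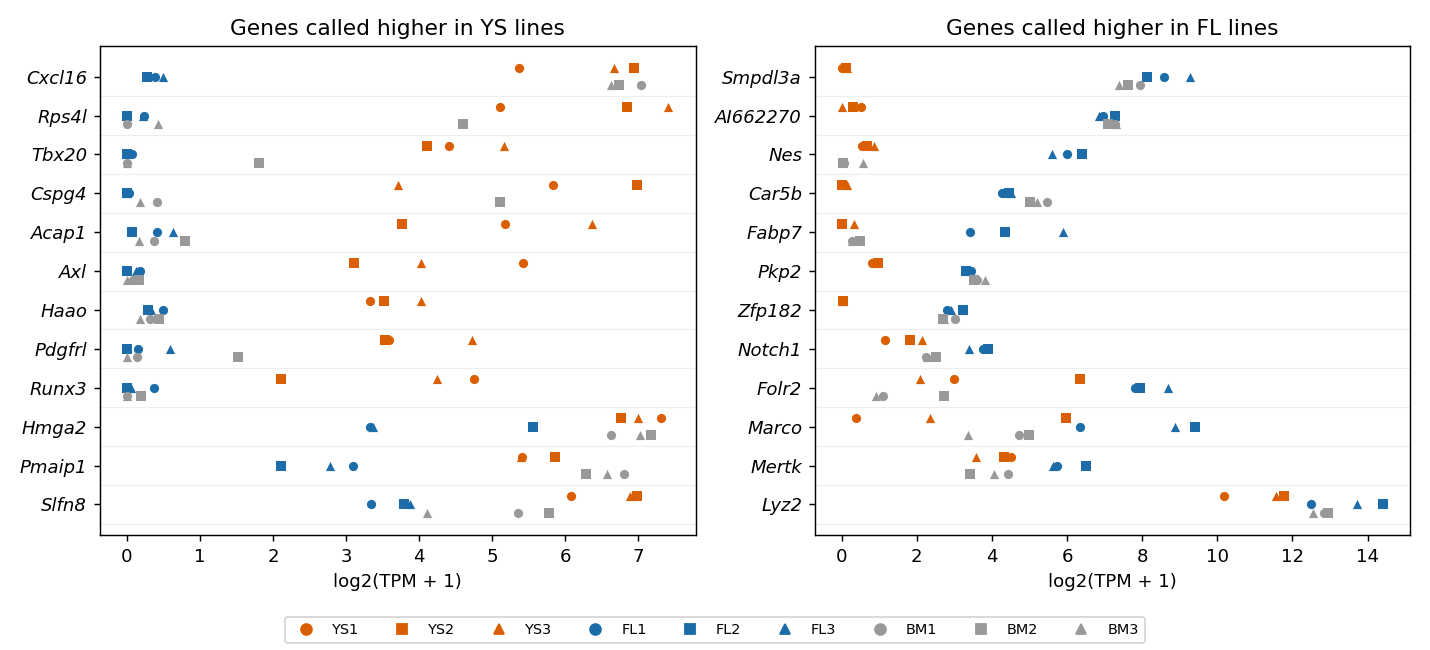
Levels of 12 YS-high and 12 FL-high genes in the 9 lines as log2(TPM + 1), with orange for YS, blue for FL and grey for BM lines and a marker shape for each line number. Smpdl3a, AI662270 and Car5b are near 0 in YS lines only, Cxcl16 is near 0 in FL lines only, and Marco and Folr2 spread widely among the YS lines.

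Cxcl16, which encodes a membrane chemokine that also binds oxidized lipoproteins and attracts cells with the receptor CXCR6, was the reverse of Smpdl3a. It was at 40.2, 122 and 101 TPM across YS lines and 0.31, 0.21 and 0.41 TPM in FL lines (5.94 ± 0.36 (SE), adjusted p = 0.00014). In BM lines it was at 130.1, 105 and 98 TPM, so the FL lines stood apart from the other 6. Slc16a3, the lactate exporter MCT4, was at 136, 113 and 66.4 TPM across YS lines, 0.21, 25.9 and 0.51 TPM in FL lines and 190.1, 199 and 229 TPM in BM lines. FL2 was far above the other FL lines but below every YS line (4.80 ± 1.01 (SE), adjusted p = 0.041), and the call was lost without FL3 and in the 6-library fit. Cxcl16 was called in every subset.

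Tbx20, a T-box transcription factor of heart development, was at 20.2, 16.2 and 34.8 TPM across YS lines and 0.05, 0 and 0 TPM in FL lines (4.54 ± 0.49 (SE), adjusted p = 0.0061). Igf2bp1, a fetal RNA-binding protein, was at 18.7, 8.76 and 5.16 TPM in YS and 0, 0 and 0.02 TPM in FL lines (3.39 ± 0.50 (SE), adjusted p = 0.015). Tbx20 and Igf2bp1 were read at modest levels in every YS line and were close to or at 0 in every FL line, and each was called in every subset. Haao, an enzyme of tryptophan breakdown, was at 9.09, 10.5 and 15.3 TPM across YS lines and 0.41, 0.22 and 0.26 TPM in FL lines (3.26 ± 0.23 (SE), adjusted p = 0.00042). Acap1, an Arf GTPase-activating protein, was at 35.1, 12.6 and 81.5 TPM across YS lines and 0.33, 0.05 and 0.55 TPM in FL lines (4.73 ± 0.56 (SE), adjusted p = 0.0072). Haao, Acap1 and Pdgfrl, a receptor-like protein at 11, 10.6 and 25.5 TPM in YS and 0.11, 0 and 0.51 TPM in FL lines, were also under 1 TPM in every FL line and called in every subset.

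Other YS-high genes varied more from line to line. Cspg4, the proteoglycan NG2 of pericytes and glial precursors, was at 56.3, 126 and 12.2 TPM across YS lines and 0.02, 0 and 0 TPM in FL lines (5.51 ± 1.28 (SE), adjusted p = 0.049), and its call was lost without FL2 or FL3. Mrgpra2a, a Mas-related receptor, was at 54.8, 11.2 and 12.3 TPM across YS lines and listed at 0 in all FL and BM lines. Uck2, a uridine-cytidine kinase, was at 127, 29.1 and 18.4 TPM across YS lines and 5.91, 0.31 and 0.35 TPM in FL lines and lost its call without FL2 or FL3 and in the 6-library fit. Rps4l, at 33.6, 114 and 169.5 TPM in YS and 0.18, 0 and 0.17 TPM in FL lines, is a copy of a ribosomal protein gene whose reads may be shared with its parent, and Mir684-1 and Snord33 are loci of short RNAs in a poly(A) library, so their levels are uncertain.

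Receptors for uptake were called in both directions. Of 31 scavenger and uptake receptors and their bridging ligands tested, 4 were called higher in YS lines and 5 higher in FL lines, against backgrounds of 1.97% and 1.89%, and the list median was -0.62. In 12 of the 31 every FL line was above every YS line (background 13.6%), and in 4 the reverse held, a share near the background of 12.6%. The 4 YS-high calls, Axl, Cxcl16, Itgb3 and Treml2, were under 1 TPM in every FL line. In the 6-library fit 3 were called: Axl and Cxcl16 higher in YS lines and Pros1 higher in FL lines.

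The TAM receptors, tyrosine kinases that bind phosphatidylserine on dying cells through the ligands Gas6 and protein S, lay on opposite sides. Axl was at 42, 7.59 and 15.3 TPM across YS lines and 0.13, 0 and 0.09 TPM in FL lines (4.09 ± 0.49 (SE), adjusted p = 0.0077), and at 0.06, 0.12 and 0 TPM in BM lines. Mertk was at 21.9, 18.9 and 11 TPM across YS lines and 52.2, 90.5 and 48.1 TPM in FL lines (-1.82 ± 0.35 (SE), adjusted p = 0.032). Every YS line thus had both transcripts, and every FL line had more Mertk and almost no Axl. Pros1, encoding protein S, was at 4.62, 2.07 and 0.92 TPM across YS lines and 17.5, 18.5 and 38 TPM in FL lines (-2.91 ± 0.46 (SE), adjusted p = 0.02). Gas6 was at 139.5, 432 and 498 TPM in YS and 780.0, 922 and 895 TPM in FL lines, without overlap and without a call (adjusted p = 0.22). Axl and Pros1 were called in every subset, whereas Mertk kept its call without each line but not in the 6-library fit.

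Marco, a class A scavenger receptor for bacteria and particles, was at 0.29, 61.8 and 4.14 TPM across YS lines and 80.6, 678 and 464 TPM in FL lines (-5.31 ± 1.33 (SE), adjusted p = 0.057). Stab1, the scavenger receptor stabilin-1, was at 33.1, 74.5 and 38.2 TPM across YS lines and 129.6, 166 and 112 TPM in FL lines (-1.54 ± 0.29 (SE), adjusted p = 0.031). Havcr2, encoding TIM-3, was at 80.6, 112 and 73.8 TPM in YS and 148, 200.5 and 211 TPM in FL lines (-1.07 ± 0.19 (SE), adjusted p = 0.025). YS2 approached the lowest FL line for Marco but did not pass it, and these genes lost the call in the 6-library fit, Marco also without FL2 or FL3, Stab1 without FL2, and Havcr2 without YS3 or FL3. In the YS-high direction Itgb3, the integrin that pairs with αv, was at 31.3, 14.6 and 2.47 TPM across YS lines and 0.36, 0.34 and 0.03 TPM in FL lines, and Treml2, a receptor of the TREM family, was at 56.2, 10.7 and 4.66 TPM in YS and 0, 0.03 and 0.07 TPM in FL lines. Itgb3 lost its call without FL2 or FL3 and both lost it in the 6-library fit.

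Lrp1, a receptor for lipoproteins and protease complexes, was higher in all FL lines with an adjusted p of 0.015 but a difference under 2-fold, -0.76 ± 0.11 (SE). It was at 336, 383 and 329.5 TPM across YS lines and 562, 641 and 574 TPM in FL lines. Trem2, the lipid receptor of microglia and foamy macrophages, was at 796, 1066 and 859.6 TPM in YS and 1172, 1361 and 1391 TPM in FL lines, also without overlap. Cd36, the fatty acid and oxidized lipoprotein receptor, was at 12.1, 439 and 359 TPM across YS lines and 461, 419 and 424 TPM in FL lines, where YS1 alone was low and the groups overlapped (not called, adjusted p = 0.35).

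In a mixed list of embryonic and tissue-resident macrophage markers, calls were in the FL-high direction alone. Of 26 markers with values 15 were tested. Of the 15 tested, 5 were called higher in FL lines (background 1.89%) and none higher in YS lines, and the median was -0.81. The paper cites TIMD4, LYVE1 and FOLR2 as core markers of embryo-derived macrophages, and of these Folr2 alone was called. Folr2, a folate receptor of resident macrophages, was at 6.95, 79.7 and 3.26 TPM across YS lines and 223, 247 and 413 TPM in FL lines (-4.35 ± 0.98 (SE), adjusted p = 0.047). Cbr2, a carbonyl reductase, was at 19.4, 48.7 and 2.91 TPM across YS lines and 194, 2112 and 336 TPM in FL lines (-5.03 ± 1.17 (SE), adjusted p = 0.049). YS2 was the highest YS line for both, and FL2 stood far above the other FL lines for Cbr2. With Marco, Stab1 and Hmox1 these made up the 5 calls, and in the 6-library fit none of the 15 was called. Folr2 and Cbr2 also lost their calls without FL2 or FL3. Mrc1, the mannose receptor, at 278, 268 and 411 TPM in YS and 541, 567 and 447 TPM in FL lines, and Igf1, a growth factor of tissue macrophages, at 280.1, 184 and 171 TPM in YS and 192, 225 and 191 TPM in FL lines, were not called, the former without overlap and the latter with it.

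Genes known from microglia were not called. None of its 15 tested genes was called by limma, 3 had an unadjusted p under 0.05 and none was called in the 6-library fit. The median was -0.12. Fcrls, an Fc receptor-like gene of microglia, was at 0.22, 369 and 288 TPM across YS lines and 595, 768 and 344 TPM in FL lines. Among the YS and FL lines it was near 0 in YS1 alone, while BM1, BM2 and BM3 were at 0, 45 and 0.08 TPM. P2ry12, the purinergic receptor of microglia, was at 41.7, 72.1 and 40.6 TPM in YS and 81, 57.6 and 54.1 TPM in FL lines.

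Heme handling genes were called in the FL-high direction alone. Hmox1, heme oxygenase, which cleaves heme to iron and biliverdin, was at 367, 1146 and 624 TPM across YS lines and 1307, 2382 and 1835 TPM in FL lines (-1.48 ± 0.40 (SE), adjusted p = 0.068). Slc48a1, which carries heme out of the phagolysosome, was at 194, 235 and 139.5 TPM in YS and 355, 489 and 412 TPM in FL lines (-1.16 ± 0.21 (SE), adjusted p = 0.026). These were the 2 calls among 22 iron and heme genes, both higher in FL lines (background 1.89%), and 18 of the 22 means were higher in FL lines (median -0.45). Hmox1 lost its call without any 1 of YS1, YS3, FL2, FL3 or the BM lines and Slc48a1 without YS3, and neither passed the 6-library fit. Ftl1, the ferritin light chain, was at 19689, 24082 and 13395 TPM across YS lines and 23277, 27451 and 32251 TPM in FL lines and Fth1, the heavy chain, at 7164, 9944 and 12255 TPM in YS and 7033, 5835 and 8878 TPM in FL lines, with the means in opposite order and both overlapping, though reads of either may be shared with processed copies.

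Of 35 antioxidant and glutathione genes 4 were called higher in YS lines and 5 higher in FL lines (backgrounds 1.97% and 1.89%), with a median of -0.25. Gstm2, a glutathione S-transferase, was at 0.86, 2.12 and 0.88 TPM across YS lines and 11.8, 36.6 and 78.7 TPM in FL lines (-3.93 ± 0.61 (SE), adjusted p = 0.018) and was called in every subset. Catalase was also called higher in FL lines. Gclm, the regulatory subunit of glutathione synthesis, was at 51.3, 187 and 71.4 TPM in YS and 251, 509 and 276 TPM in FL lines (-1.88 ± 0.45 (SE), adjusted p = 0.051). YS2 was the highest YS line for Gstm2 and Gclm, and no YS line reached an FL line. Gstp1, another transferase, went the other way, at 35.1, 9.23 and 2.05 TPM across YS lines and 0.24, 0 and 0.22 TPM in FL lines, though reads of this gene may be shared with near-identical copies. Slc7a11, Mgst2 and Gstt1 were the remaining YS-high calls, and each lost its call in most of the fits that left out a library. Gclm and Gstp1 lost theirs without FL2 or FL3, and catalase, Gclm and Gstp1 theirs in the 6-library fit.

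Lysozyme was the most abundant FL-high transcript. Lyz2 was at 1163, 3531 and 3031 TPM across YS lines and 5806, 21976 and 13618 TPM in FL lines (-2.37 ± 0.53 (SE), adjusted p = 0.046), with FL2 highest and YS1 lowest. Lyz1, which is nearly identical and can share reads, was at 21.8, 61.9 and 58.1 TPM in YS and 111, 448 and 274 TPM in FL lines. Both lost the call without FL2 or FL3 and in the 6-library fit. S100a8, a calcium-binding alarmin of neutrophils and monocytes, was at 2.19, 0 and 0.54 TPM across YS lines and 10.5, 25.1 and 24.2 TPM in FL lines (-3.53 ± 0.46 (SE), adjusted p = 0.01), while its partner S100a9 and the granule genes Elane, Ngp and Retnlg were listed at 0 in all 6. Vim, the filament vimentin, was at 682, 1558 and 1208 TPM in YS and 2238, 2499 and 2894 TPM in FL lines (-1.22 ± 0.28 (SE), adjusted p = 0.048), and its call was lost without YS1, FL2 or FL3. Id1, an inhibitor of helix-loop-helix factors that BMP signals induce, was at 159, 237 and 184 TPM across YS lines and 436, 679 and 567 TPM in FL lines (-1.53 ± 0.22 (SE), adjusted p = 0.015). Id1 and S100a8 were called in every subset.

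The few calls among chemokine and cytokine genes were in the YS-high direction. Of 12 CC chemokines tested 2 were called higher in YS lines and none higher in FL lines (backgrounds 1.97% and 1.89%). The family was evenly split, with 6 means higher in YS lines and 6 in FL lines. Its median was 0.165, and -0.14 without YS3. Of 6 CXC, XC and CX3C chemokines 1 was called, Cxcl16, given above. Ccl3, a chemokine for monocytes and T cells, was at 445, 541 and 591 TPM across YS lines and 217, 198 and 216 TPM in FL lines (1.31 ± 0.14 (SE), adjusted p = 0.0063) and was called in every subset. Ccl4, its neighbour in the same gene cluster, was at 332, 445 and 601 TPM in YS and 207, 234 and 216 TPM in FL lines (1.03 ± 0.26 (SE), adjusted p = 0.06) and lost its call in the 6-library fit and without YS3, FL1, FL2, FL3 or BM1. Of 22 cytokines 3 were called higher in YS lines and none higher in FL lines (backgrounds 1.97% and 1.89%, list median 0.46). YS3 was the highest of the 6 lines for 12 of the 22. The list median was 0.01 without YS3 and 0.22 without FL2. Tnfsf10, the death ligand TRAIL, was at 4.61, 10.2 and 12.3 TPM in YS and 1.83, 0.03 and 1.22 TPM in FL lines (2.34 ± 0.49 (SE), adjusted p = 0.04). Tnfsf14, a ligand of the lymphotoxin family, was at 4.97, 6.32 and 8.53 TPM in YS and 1.86, 1.87 and 1.98 TPM in FL lines (1.36 ± 0.28 (SE), adjusted p = 0.037). With Ltb, at 5.05, 2.31 and 3.88 TPM in YS and 1.71, 1.14 and 1.01 TPM in FL lines, all lost the call without FL2 or FL3 and in the 6-library fit. Ltb lost it also without YS1, YS3 or any BM line.

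Csf1, the gene of M-CSF itself, was at 12.6, 18 and 29.3 TPM across YS lines and 6.42, 0.13 and 4.01 TPM in FL lines (2.52 ± 0.71 (SE), adjusted p = 0.074). The groups did not overlap, yet the call was lost in the 6-library fit and without YS2, YS3, FL2, FL3, BM2 or BM3. Pmaip1, encoding the pro-apoptotic protein NOXA, was at 41.6, 57.1 and 41.1 TPM across YS lines and 7.51, 3.3 and 5.85 TPM in FL lines (2.90 ± 0.26 (SE), adjusted p = 0.0024) and was called in every subset. Stap1 and Napsa, among the 10 most abundant YS-high genes, also passed every subset.

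Stap1, an adaptor that binds the M-CSF receptor, was at 264, 262 and 359 TPM in YS and 123, 70.7 and 121 TPM in FL lines (1.51 ± 0.25 (SE), adjusted p = 0.023). Napsa, an aspartic protease, was at 222, 150.3 and 324 TPM in YS and 47.4, 53.4 and 24 TPM in FL lines (2.46 ± 0.39 (SE), adjusted p = 0.02). Neither overlapped. Lpl, lipoprotein lipase, was at 1584, 842 and 201 TPM in YS and 321, 64.8 and 41.8 TPM in FL lines (2.74 ± 0.85 (SE), adjusted p = 0.093). Cd74, the invariant chain of MHC class II, was at 129, 218 and 450.4 TPM in YS and 57.5, 7.69 and 81.6 TPM in FL lines (2.75 ± 0.85 (SE), adjusted p = 0.091). FL1 passed the lowest YS line for Lpl but not for Cd74, and both lost the call without YS2, FL2, FL3 or any BM line and in the 6-library fit, Lpl also without YS1 and Cd74 without YS3.

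Transcription factors of the myeloid lineage divided by factor. Of 48 tested, 4 were called higher in YS lines and 3 higher in FL lines (backgrounds 1.97% and 1.89%, list median -0.18). Spi1, encoding PU.1, was at 391, 427 and 364 TPM across YS lines and 444, 456 and 433 TPM in FL lines (not called, -0.18 ± 0.10 (SE)). Klf2, a factor that restrains inflammatory genes, was at 5.76, 34.4 and 35.4 TPM in YS and 71.8, 88.2 and 62.6 TPM in FL lines (-1.86 ± 0.57 (SE), adjusted p = 0.092). Its relative Klf4 was at 2.67, 12.5 and 11.9 TPM in YS and 20.5, 23.3 and 27.5 TPM in FL lines (-1.51 ± 0.44 (SE), adjusted p = 0.08). Both were lowest in YS1 and lost their calls without FL1, FL2, FL3 or any BM line and in the 6-library fit, Klf4 also without YS1.

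Lectin-like and inhibitory receptors were called in the FL-high direction. Of 31 C-type lectin, Siglec and paired receptors 3 were called higher in FL lines and none higher in YS lines (backgrounds 1.89% and 1.97%), with a median of -0.50. In 4 of the 31 every FL line was above every YS line, a share near the background of 13.6%, and the reverse held in none. Cd200r1, which passes an inhibitory signal from CD200, was at 38.4, 2.03 and 0.1 TPM across YS lines and 65.5, 73.3 and 89.9 TPM in FL lines (-3.91 ± 1.06 (SE), adjusted p = 0.067). Pirb, an inhibitory immunoglobulin-like receptor, was at 71.8, 191 and 88.3 TPM in YS and 250.3, 268 and 307 TPM in FL lines, though its reads may be shared with the Pira genes, and Clec10a, a lectin for galactose, was at 1.76, 9.91 and 5.54 TPM in YS and 26.5, 18.2 and 16.8 TPM in FL lines. YS1 was the lowest of the 6 lines for 16 of the 31, and without YS1 the median was -0.18. Each of the 3 calls was lost in the 6-library fit and without FL2 or FL3, Cd200r1 also without YS2 or any BM line and Clec10a without YS1, FL1, BM1 or BM3.

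Genes tied to osteoclasts and cell fusion included 2 calls among 8 tested, both higher in YS lines (background 1.97%) and both under 1 TPM in every FL line. Dcstamp, a membrane protein needed for the fusion of precursors, was at 44, 28.7 and 5.16 TPM across YS lines and 0.1, 0.08 and 0.55 TPM in FL lines (4.04 ± 0.64 (SE), adjusted p = 0.02). Itgb3, given above, was the other. Ptgs2, the inducible cyclooxygenase, was at 11.1, 2.68 and 3.13 TPM in YS and 0.08, 0 and 0.29 TPM in FL lines (2.35 ± 0.42 (SE), adjusted p = 0.026), and Fgf13, an intracellular fibroblast growth factor homologue, was at 7.97, 17.7 and 7.27 TPM in YS and 1.88, 0 and 0.99 TPM in FL lines (2.64 ± 0.42 (SE), adjusted p = 0.02). Dcstamp, Ptgs2 and Fgf13 kept their calls without each line but not in the 6-library fit. Tlr9, the receptor for unmethylated CpG DNA, was at 39.8, 22.3 and 17.8 TPM across YS lines and 8.6, 1.18 and 4.36 TPM in FL lines (2.44 ± 0.60 (SE), adjusted p = 0.056), and lost its call without YS1, FL2 or FL3 and in the 6-library fit.

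Developmental regulators were called mostly in the YS-high direction. Of 114 listed regulators outside the Hox family 28 were tested, and 7 were called higher in YS lines and 1 higher in FL lines (backgrounds 1.97% and 1.89%), with a median of 0.20. Tbx20, Gata3 and Msx1 are among the YS-high calls that were under 1 TPM in every FL line. Notch1, the receptor, was the FL-high one, at 1.24, 2.55 and 3.4 TPM across YS lines and 12.6, 13.9 and 9.42 TPM in FL lines (-1.97 ± 0.27 (SE), adjusted p = 0.012), and was called in every subset. Its ligand genes Dll1, at 14.8, 3.64 and 3.28 TPM in YS and 1.18, 0.23 and 1.02 TPM in FL lines, and Jag2, at 31.4, 21 and 6.66 TPM in YS and 2.91, 3.37 and 5.84 TPM in FL lines, were called in the opposite direction, and both lost the call in the 6-library fit and without FL2, FL3 or BM3, Jag2 also without YS2, FL1 or BM1. Of 15 Hox genes and Hox cofactors tested 3 were called higher in YS lines (background 1.97%) and none higher in FL lines, but all 3 were under 1 TPM in every FL line and so passed the filter only through the YS lines. Hoxb13 was at 23.6, 8.2 and 2.78 TPM across YS lines and 0.13, 0.42 and 0.48 TPM in FL lines, Hoxc6 at 11.1, 2.13 and 1.02 TPM across YS lines and listed at 0 in FL lines, and the cofactor Meis2 at 4.05, 1.8 and 3.2 TPM in YS and 0.14, 0.25 and 0.26 TPM in FL lines. YS1 was the highest line of the 6 for 8 of these 15 genes, and none was called in the 6-library fit.

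Among fetal growth genes 4 of 15 tested were called higher in YS lines and none higher in FL lines (backgrounds 1.97% and 1.89%), of which Igf2bp1, Peg10 and Sgce were under 1 TPM in every FL line and passed the filter only through the YS lines. Hmga2, a chromatin protein of growing embryonic tissue, was at 158, 108 and 126 TPM across YS lines and 9.01, 46.3 and 9.37 TPM in FL lines (2.94 ± 0.53 (SE), adjusted p = 0.027), and at 97.9, 143 and 129 TPM in BM lines. Igf2bp3, a relative of Igf2bp1, was at 95.4, 59.8 and 51 TPM in YS and 72.1, 56.6 and 61.1 TPM in FL lines and overlapped, and the fetal growth factor Igf2 did not pass 0.41 TPM in any of the 6 lines. Peg10, an imprinted gene, was at 1.16, 2.93 and 3.03 TPM in YS and 0.12, 0 and 0 TPM in FL lines. Its imprinted neighbour Sgce was at 3.61, 34.4 and 16.1 TPM in YS and 0.59, 0 and 0.18 TPM in FL lines, and both lost their calls without FL2 or FL3 and in the 6-library fit, Sgce also without YS2. Runx3, a factor of lymphoid and myeloid cells, was at 26, 3.32 and 18 TPM across YS lines and 0.29, 0 and 0.04 TPM in FL lines (3.57 ± 0.59 (SE), adjusted p = 0.022). Nr4a1, an early response receptor, was at 9.4, 10.3 and 14.6 TPM in YS and 0.79, 1.5 and 3.76 TPM in FL lines (2.14 ± 0.35 (SE), adjusted p = 0.021). Hmga2, Runx3 and Nr4a1 kept their calls without each line but not in the 6-library fit.

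Several large lists leaned one way by small amounts. Of 51 ribosome biogenesis genes 47 had the higher mean in YS lines and 22 had every YS line above every FL line (background 12.6%), with a median of 0.39. None was called by limma, 24 had an unadjusted p under 0.05, and 16 had an adjusted p under 0.1 with a difference under 2-fold, all higher in YS lines. YS1 was the highest line for 42 of the 51, and without YS1 the median was 0.23. Of 42 S phase genes 39 had the higher mean in YS lines (median 0.41), 17 had every YS line above every FL line (background 12.6%), none was called by limma and 23 had an unadjusted p under 0.05. Fen1, the flap endonuclease of DNA replication, was at 114, 84.5 and 108 TPM across YS lines and 61.2, 58.5 and 59.6 TPM in FL lines (0.75 ± 0.13 (SE), adjusted p = 0.023).

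Of 62 interferon-stimulated genes tested 58 had the higher mean in YS lines (median 0.69), 9 had every YS line above every FL line and 1 was called in each direction, shares near the backgrounds of 12.6%, 1.97% and 1.89%. FL2 was the lowest of the 6 lines for 47 of the 62 and YS3 the highest for 53. Without FL2 or without YS3 the median was 0.32. Isg15, a ubiquitin-like protein, was at 129, 339 and 751 TPM across YS lines and 336, 32.1 and 236 TPM in FL lines and overlapped. Slfn8, a Schlafen gene, was at 66.4, 125 and 117 TPM across YS lines and 9.16, 12.9 and 13.6 TPM in FL lines (2.97 ± 0.42 (SE), adjusted p = 0.014) and was called in every subset. Slfn5, a member of the same family, went the other way, at 0.33, 0.7 and 1.08 TPM across YS lines and 93.9, 76.3 and 2.4 TPM in FL lines, where FL3 was close to the YS lines and the call was lost in 7 of 9 fits that left out a library. Reads of Schlafen genes may be shared between copies. Of 26 MHC class I and antigen processing genes none was called by limma, 7 had an unadjusted p under 0.05, and FL2 was the lowest line for 16.

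**Figure D3:**
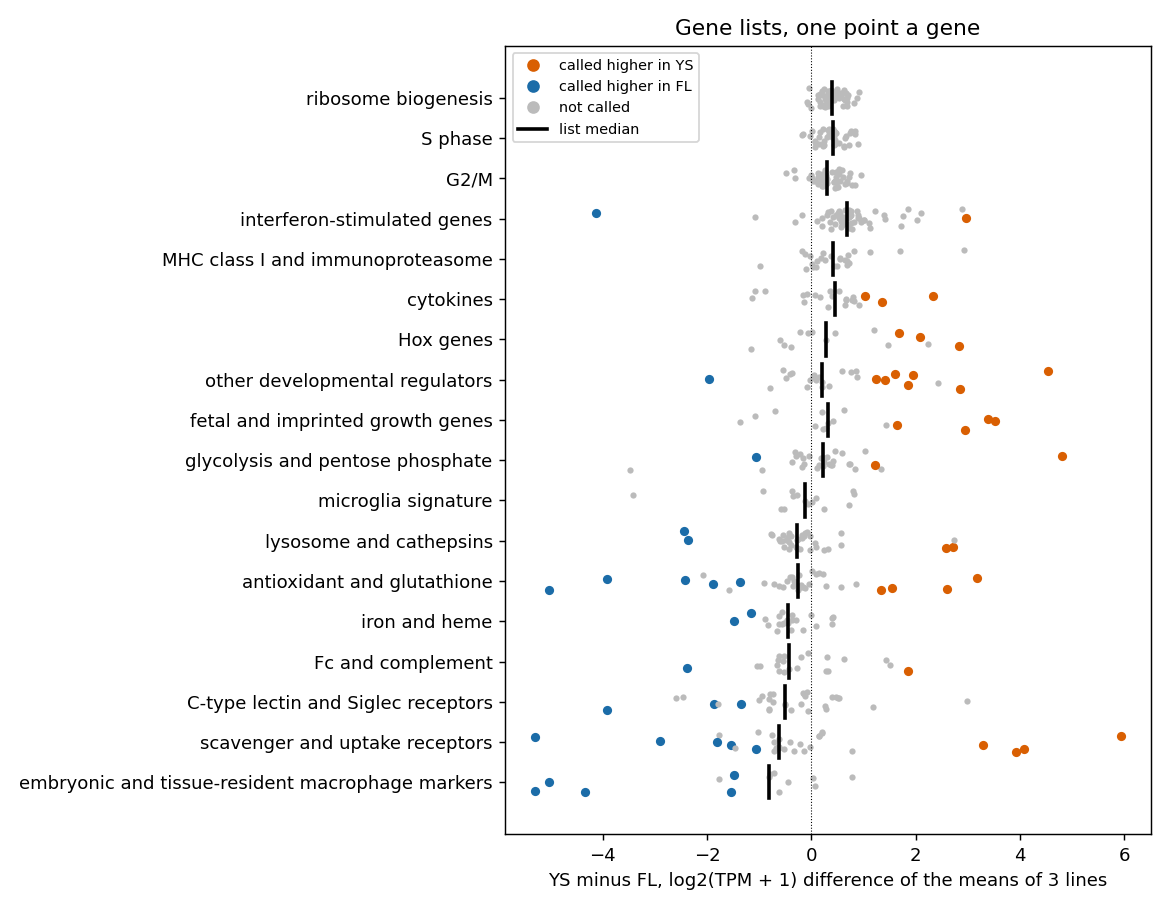
Difference between YS and FL lines on the log2(TPM + 1) scale for the genes of 18 lists, with 1 point a gene, orange or blue where called and a black bar at the list median. Ribosome biogenesis and S phase genes lie close together just right of 0, while scavenger receptors and antioxidant genes have called members on both sides.

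Some genes were switched in a single line. In 8 genes 5 of the 6 lines were at 50 TPM or more and the sixth under 5 TPM, and the low line was FL2 in 4, YS1 in 2 and YS3 and FL3 in 1 each. They were picked out after their values were seen. Lgals3, the lectin galectin-3 found in nearly all macrophages, was at 1153, 1715 and 841 TPM across YS lines, 1669.8, 2.76 and 3293 TPM in FL lines and 2421, 2261 and 2762 TPM in BM lines. Cdkn2a, whose products restrain the cell cycle and stabilise p53, was at 180.1, 143 and 92.2 TPM across YS lines and 171, 2.86 and 123 TPM in FL lines. FL2 alone was low for both. Igfbp4, an IGF-binding protein, was at 542, 870.2 and 0.37 TPM in FL lines, low in FL3 alone, and Phgdh, the entry enzyme of serine synthesis, was at 321, 221 and 2.78 TPM in YS lines, low in YS3 alone. None of these was called, and all have overlapping groups.

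Sex-linked transcripts differed between the lines as well. Xist, the RNA that coats the inactive X chromosome, was at 0.01, 0 and 0.01 TPM across YS lines and 0.01, 303 and 176 TPM in FL lines. The Y-linked gene Ddx3y was at 47.7, 0.03 and 0 TPM in FL lines, Eif2s3y was at 66.4, 0 and 0 TPM, and both were listed at 0 in every YS line. FL1 thus had Y-linked transcripts, FL2 and FL3 had Xist, and the 3 YS lines had at most 0.01 TPM of Xist and no Y-linked transcript. The part of this difference in the comparison was not tested.

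Median levels of some chromosomes were shifted in particular lines. Each gene with a mean of at least 5 TPM was set against its median over the 9 libraries, and the median of these values was taken over each chromosome, for 9883 genes. The X chromosome was at -0.54 in YS1, against 0 in YS2 and YS3 and -0.01 to 0 in FL lines. Chromosome 3 was at -0.34 in YS3 and 0.25 in YS2, chromosome 5 at 0.33 in YS3, chromosome 8 at 0.29 in YS1 and -0.20 in YS3, and chromosome 11 at 0.25 in FL2. Chromosome 19 was lower in all FL lines, at -0.26 to -0.22, than in the YS lines, at -0.04 to -0.02. Such a median need not hold along the whole chromosome. In YS3 the genes around Tnfsf10 on chromosome 3 stood at -0.83 and those around Csf1 at 0.51. The X chromosome of YS1 was at -0.70 to -0.45 in each sixth of its genes. DNA was not measured, and the cause of these shifts was not tested.

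On chromosome 9 such a shift coincided with calls. It stood at 0.32, 0.11 and 0.29 in YS1, YS2 and YS3 and at 0.20, -0.03 and -0.03 in FL1, FL2 and FL3, and 25 of its 631 tested genes were called higher in YS lines and 7 higher in FL lines (backgrounds 1.97% and 1.89%). Called shares were higher on chromosomes 2 and X. They were 5.51% (19 YS-high and 32 FL-high of 925) and 5.88% (8 and 13 of 357). On chromosome 9 the share was 5.07%, and over all genes 3.87%. Among called genes named above, FL-high Car5b, Zfp182 and Syp and YS-high Fgf13 lie on X. In the sixth of chromosome 9 genes nearest its start, YS3 was at 0.93, and in the sixth furthest from it at 0.03. Dnmt1, the maintenance DNA methyltransferase, was at 279, 195 and 484 TPM across YS lines and 177, 109.5 and 128 TPM in FL lines (1.13 ± 0.30 (SE), adjusted p = 0.067). Prkcsh, a glucosidase subunit, was at 200.4, 165 and 313 TPM in YS and 125, 71.5 and 98.6 TPM in FL lines (1.18 ± 0.26 (SE), adjusted p = 0.044). Raver1, a splicing cofactor, was at 191, 122 and 244 TPM in YS and 117, 77.4 and 76.6 TPM in FL lines (1.00 ± 0.25 (SE), adjusted p = 0.058). The genes around Dnmt1, Prkcsh and Raver1 stood at medians of 0.94, 1.02 and 0.91 in YS3. With each gene set against the 25 measured genes on either side, an alternative chosen after the data were seen, Dnmt1, Prkcsh and Raver1 were under 2-fold, at 0.64, 0.72 and 0.54 on the log2 scale, and all lost their calls, as they did without YS3, FL2 or FL3. Plekho2, also on chromosome 9, was at 0.88 and lost its call, while Tbx20, on the same chromosome, stayed called at 4.09. Neighbours were more than 0.3 higher in YS lines for 14 of the 226 YS-high genes and for 2 of the 217 FL-high genes. The same share over all genes tested was not computed, so these counts have no background beside them. Over all genes 432 were called relative to their neighbours, 376 of them among the 443.

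**Figure D4:**
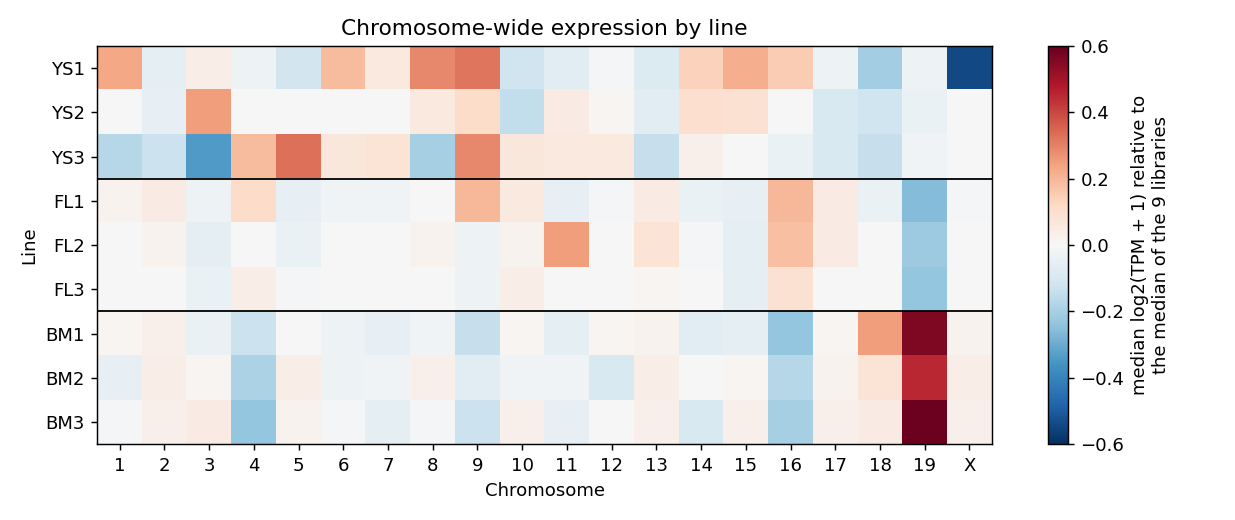
Median level of the genes of each chromosome in each line, relative to the gene's median over the 9 libraries, as log2(TPM + 1). The deepest colours are X in YS1 at -0.54 and chromosome 19 in the BM lines, and chromosome 9 is raised in YS1, YS3 and FL1.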

How the data were processed

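Poly(A) RNA of 9 mouse macrophage lines was sequenced from strand-specific libraries. The submitters' notes name Trim Galore 0.6.6, STAR 2.7.9a and RSEM 1.3.3, and the genome build and annotation are not given in the sources used here. The authors deposited a table of TPM for 24411 genes, a relative transcript abundance scaled to the same total in each library and by gene length. It holds no read counts, so depth is unknown and no counting interval can be given. Libraries were assigned to groups from their labels.

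TPM was transformed to log2(TPM + 1). The fit took the 11460 genes that reached 1 TPM in 3 or more of the 6 YS and FL libraries. YS was compared with FL in limma 3.58.1 (R 4.3.3) with an intensity trend, in a fit of all 9 libraries in which BM contributed only to the spread. Genes with a Benjamini-Hochberg adjusted p under 0.1 and a difference over 2-fold were called. The code was tested on simulated data. The text may name members of 47 gene lists, the 15 called genes with the largest difference in each direction among those without overlap, the 10 most abundant called genes in each direction, and the 10 genes in each direction under 1 TPM in all lines of 1 group with the highest minimum in the other. The members and lists were chosen with earlier results of these data known. Cell cycle lists were those in Seurat 5.3.0. Chromosomes and promoters came from RefSeq GRCm38.p6, matched by symbol for 11418 of 11460 genes (531 by an older symbol) and for 8736 promoters, the first listed start of each gene. Because 76.2% had a promoter entry, under the 80% required here, no comparison of promoters between called groups is given.

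Alternatives changed the libraries, pseudocount, filter, scaling, variance model, replicate block and thresholds, 1 at a time except that the replicate block was also fitted in the 6 YS and FL libraries alone.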

Additional observations from a re-analysis of the deposited data

How the results depend on the processing

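The 443 calls (226 higher in YS lines, 217 higher in FL lines) became 76 (44 and 32) with the 6 YS and FL libraries alone, 282 (146 and 136) with a pseudocount of 4, 293 (126 and 167) with a filter of 5 TPM, where 9904 genes were tested, 246 (119 and 127) at an adjusted p under 0.05 and 1532 (742 and 790) without a fold threshold. Leaving out 1 of the 9 libraries at a time gave 189 to 589 calls, 103 to 274 higher in YS lines and 83 to 352 higher in FL lines. Without YS2 the share of calls higher in YS lines was 40.2%. Other pseudocounts, filters, scalings and variance models gave 377 to 576 calls. The 576 came with sample weights, 337 higher in YS lines and 239 higher in FL lines, and 315 of them were among the 443. None of 120 named genes reversed in the fits where it was tested, and 33 were not tested with the filter of 5 TPM. They were named for calls in these same data, so a reversal was hardly possible. With the 6 YS and FL libraries alone 83 of the 120 lost their call. Apart from fewer libraries, genes or a different threshold by construction, the cause of these differences was not tested.

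YS and FL lines share replicate numbers, but the deviations of same-numbered lines from their group means correlated at 0.002, 0.087 and 0.024 over genes, so the numbers were not taken as pairs, and FL1 and FL3 did not correlate best with their own number. With the replicate block 407 genes were called (188 and 219, of which 387 among the 443) in 9 libraries, and 39 (21 and 18) in 6. Depth is unknown, so genes near 0 carry no counting error, and differences against a group at or near 0 rest on the pseudocount.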

Other observations

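The BM lines, which were not part of the comparison, lay on the log2(TPM + 1) scale nearer the FL mean for 162 of the 226 YS-high genes and nearer the YS mean for 64. For the 217 FL-high genes they were nearer the FL mean in 116 and nearer the YS mean in 101. The same shares over all genes tested were not computed. The genes were picked by their YS and FL levels, and BM2 stood apart in genes of those lines. These counts therefore cannot show which origin the BM lines resemble more.

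Several called genes with roles outside the groups above may be of interest. Cst7, cystatin F, an inhibitor of lysosomal proteases in immune cells, was at 63.4, 27.3 and 77.5 TPM across YS lines and at 17.9, 4.52 and 5.36 TPM in FL lines (limma, 2.58 on the log2 scale, adjusted p = 0.039), without overlap, and lost its call without FL2 or FL3 and in a fit of the 6 YS and FL libraries alone. Plin3, a coat protein of lipid droplets, was at 73.6, 42 and 24.1 TPM across YS lines and at 114, 116 and 164 TPM in FL lines (-1.60, adjusted p = 0.044), also without overlap and with the same losses. Cd44, the hyaluronan receptor, was at 103, 125 and 107 TPM across YS lines and at 201, 199.9 and 298 TPM in FL lines (-1.03, adjusted p = 0.022), and lost its call without YS1 or FL3, in the fit of 6 libraries and relative to its chromosomal neighbours.

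Npy, encoding neuropeptide Y, was listed at 0 in YS1 and was at 54.3 to 363 TPM in the other 5 YS and FL lines. It was picked out after its values were seen.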
